A study of Mus musculus with 51 samples.

Results

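The protein phosphatases described here are all 69 genes, of 6248 listed, whose symbol is Ppp followed by a digit or begins with Ptpn or Ptpr. They comprise 3 catalytic and 27 regulatory genes of protein phosphatase 1 (PP1), 10 genes of protein phosphatase 2A (PP2A), 5 of calcineurin, 10 of PP4, PP5 and PP6, 6 non-receptor tyrosine phosphatases (Ptpn) and 8 receptor-type tyrosine phosphatases (Ptpr). They were measured with GeoMx, a method that counts probe reads from RNA in outlined regions of a tissue section, in 6 µm fresh-frozen cochlear sections of male CBA/CaJ mice aged 16 weeks. Mice heard 100 dB SPL broadband noise for 2 h or were mock-exposed, with 5 animals per treatment. The sample labels read 2 h + 4 h for the noise and the mock groups alike. The series design has the animals killed right after exposure, so the time of collection is not settled. No agent or allele is named for any group used here. The regions fall into 4 groups: 16 mock neuron, 12 noise neuron, 14 mock supporting-cell and 8 noise supporting-cell regions, after noise neuron replicate 6, all of whose values are equal, was left out. Regions are not tied to animals in the labels and outnumber them, so some come from the same mouse and the p-values below are smaller than they should be.

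Reversible phosphorylation is set by kinases and by phosphatases that remove the phosphate. The serine and threonine phosphatases PP1 and PP2A pair a few catalytic subunits with many regulatory subunits, which choose the substrate and the place in the cell. Calcineurin is the phosphatase switched on by calcium and calmodulin, and it is abundant in neurons, where it acts on NFAT transcription factors and on synaptic proteins. Tyrosine phosphatases occur as cytosolic enzymes and as receptor-like proteins of the cell surface, several of which organise synapses or guide axons.

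The 250 bases before the annotated start of 3 genes are shown because these genes mark the comparison in which most calls were made: Ppp3cb and Ppp2r2c were higher in neuron regions under mock and under noise, and Ptpn13 was the member that was lower in mock neuron regions. They are RefSeq sequences of GRCm38.p6. The submitters' processing notes name GRCm38 and mm10, without the p6. The windows are chr14:20546574-20546823 on the minus strand for Ppp3cb, chr5:36868260-36868509 on the plus strand for Ppp2r2c and chr5:103424942-103425191 on the plus strand for Ptpn13. All are written 5′ to 3′, and capitals mark matches to the GC box GGGCGG on either strand.
Ppp3cb: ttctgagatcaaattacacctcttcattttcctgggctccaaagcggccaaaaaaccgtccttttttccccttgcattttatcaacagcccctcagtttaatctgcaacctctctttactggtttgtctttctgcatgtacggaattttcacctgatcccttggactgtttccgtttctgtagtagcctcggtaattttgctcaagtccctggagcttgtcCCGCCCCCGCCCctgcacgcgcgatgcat
Ppp2r2c: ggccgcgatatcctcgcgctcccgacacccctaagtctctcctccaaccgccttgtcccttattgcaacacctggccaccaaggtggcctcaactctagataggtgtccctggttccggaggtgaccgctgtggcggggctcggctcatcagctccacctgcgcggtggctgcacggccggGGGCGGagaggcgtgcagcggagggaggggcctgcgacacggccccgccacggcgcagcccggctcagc
Ptpn13: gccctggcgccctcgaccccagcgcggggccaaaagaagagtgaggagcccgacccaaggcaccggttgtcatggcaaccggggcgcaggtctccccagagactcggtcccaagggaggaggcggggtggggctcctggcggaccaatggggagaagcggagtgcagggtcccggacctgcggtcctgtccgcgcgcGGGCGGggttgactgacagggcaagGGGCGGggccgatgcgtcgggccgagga
The Ppp3cb and Ptpn13 windows end just before the first base of the RefSeq gene, whereas the Ppp2r2c start used lies inside a gene annotated from 36866846 to 36955078 on chromosome 5. The GC content was 48.4% for Ppp3cb, 69.6% for Ppp2r2c and 72.4% for Ptpn13, with a median of 52.4% over all RefSeq windows. The GC box was found in 46 of 70 windows of the members (65.7%; 56 members had an entry) and in 33% of 32536 windows of all genes. The heat-shock element core GAANNTTC was found in 4 of 70 windows of the members (5.71%) and in 6.72% of all windows. Ppp3cb held 1 of these cores, 108 bases before its start, and Ppp2r2c and Ptpn13 held none. A match is a stretch of letters and was not tested as a binding site.

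The deposited signal is on a scale that gives every region the same upper quartile (3.12), and the lowest value of a region is taken as 1 read. Up to 70.6% of a region's genes stood at that lowest value. Whether genes without reads were raised to it is not given in the sources used here. Total reads ran from 10147 to 58022 in mock neuron, 12128 to 88156 in noise neuron, 9607 to 22926 in mock supporting-cell and 11770 to 25605 in noise supporting-cell regions. The members were counted at few reads: their median was 3 reads in mock and 3.5 in noise neuron regions, and 1.5 in mock and 2.5 in noise supporting-cell regions. Between 18.1% (noise neurons) and 48.1% (mock supporting cells) of the members' values stood at 1 read. Olfactory receptor genes, used here as genes the cochlea should not express, gave a background level in each group. The members whose mean passed the 95th percentile of that background numbered 24 of 69 (34.8%) in mock and 17 (24.6%) in noise neuron regions, and 13 (18.8%) in mock and 8 (11.6%) in noise supporting-cell regions. In the same order the shares over the 5680 genes that are not olfactory receptors were 31.2%, 17.4%, 12.0% and 7.11%. Ppp1cb, Ppp1r9b, Ppp3r1, Ppp6r1, Ppp6r2 and Ppp6r3 passed it in all 4 groups, and 27 members in at least 1. Of the 69 members, 57 passed the filter on low mean signal (1.85) and were tested. The 12 below it were Ppp1r1b, Ppp1r36, Ppp1r3c, Ppp2r2a, Ppp2r5c, Ppp2r5d, Ppp3ca, Ptpn7, Ptpn21, Ptprg, Ptpro and Ptprz1.

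The region labels were checked against cell markers. All 10 listed neuron markers had positive differences, neuron minus supporting-cell regions, under both treatments. By limma at an adjusted p below 0.05, 9 were called higher under mock and 9 under noise. Over all genes tested 13.4% and 6.76% were called higher. The markers' summed signal ran from 154 to 377 (mock) and 103 to 226 (noise) in neuron regions. In supporting-cell regions it ran from 43.7 to 109 (mock) and 31.2 to 94.8 (noise). Of 9 listed glial markers, 8 had negative differences under each treatment, and 7 were called lower in neuron regions under mock and 4 under noise. Over all genes tested 5.63% and 1.17% were called lower. The summed glial signal was 23.9 to 56.1, 17.7 to 36.1, 92.0 to 161 and 39.5 to 69.9 in the same order. Markers of organ of Corti supporting cells were listed for 3 of 10 genes and summed to between 2.34 and 10.9 in every region. Of these, Hey2 was called lower in mock neuron regions (-0.49, limma adjusted p = 0.0369), Prox1 was not called (0.14) and Sox2 was below the filter. The Hey2 means in mock neuron and supporting-cell regions (1.49 and 2.55) were below the olfactory receptor background (2.55 and 3.29). Leukocyte markers were not among the genes analysed. Of 3 listed bone and connective tissue markers, Coch and Sparc were called lower in mock neuron regions (-1.74 and -0.79) and Spp1 higher (1.56). The regions labelled supporting cells thus carried glial transcripts, but not those alone. In such regions fewer cells of a type and less RNA per cell cannot be told apart.

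Neuron and supporting-cell regions were compared first under mock exposure, to show which phosphatase genes differ between the region types without noise. Ppp3cb, the beta catalytic subunit of calcineurin, was the member with the largest difference, followed by Ppp2r2c, the gamma member of the B55 regulatory subunits of PP2A. Ppp2r1a, the alpha scaffold subunit of PP2A, and Ppp1cb, the beta catalytic subunit of PP1, were higher in neuron regions by smaller amounts, and Ptpn13, a cytosolic tyrosine phosphatase with FERM and PDZ domains, was lower. These were the 5 of 57 members called by limma at an adjusted p below 0.05 over all genes, 4 higher and 1 lower. Over all 4686 genes tested 19.1% were called (13.4% higher and 5.63% lower), and 10.8% of the genes from N to Slc26, the stretch of the alphabet in which all members and all 465 tested olfactory receptor genes lie. The members' share was 8.77%, below that of all genes and near that of the stretch, so the count is not a result particular to the members. Their median difference was -0.04 on the log2(signal + 1) scale, beside -0.05 over all genes and -0.15 over the stretch. An unadjusted p below 0.05 was reached by 8 of 57 members and by 31.2% of all genes. In noise-exposed cochleae 2 of 57 members were called, Ppp3cb and Ppp2r2c, both higher in neuron regions, with 7.94% of all genes called (6.76% higher and 1.17% lower) and 3.31% of the stretch. An unadjusted p below 0.05 was reached there by 7 of 57 members and by 18.4% of all genes. The members' median after noise was 0.03, beside 0.05 over all genes and -0.04 over the stretch. No member had neuron and supporting-cell values that did not overlap, which 0.619% of genes had under mock and 0.363% under noise.

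Among the calcineurin genes Ppp3cb differed most. Its signal ran from 1.56 through a median of 7.80 to 15.6 in mock neuron regions and from 1.04 through 2.60 to 6.24 in mock supporting-cell regions. After noise it ran from 4.68 through 8.14 to 11.4 in neuron regions and from 1.04 through 1.98 to 6.24 in supporting-cell regions. The neuron regions were thus high under both treatments, and the ranges overlapped between 1.56 and 6.24 under mock and, through 1 supporting-cell region, between 4.68 and 6.24 under noise. The group means were 8.45 ± 3.75 (SD, n = 16), 8.05 ± 2.25 (n = 12), 2.72 ± 1.39 (n = 14) and 2.48 ± 1.64 (n = 8) for the mock and noise neuron and the mock and noise supporting-cell regions. The median counts behind them were 11, 11.5, 2 and 2.5 reads. The difference was 1.30 ± 0.21 (SE) under mock (limma, adjusted p = 9.12e-09) and 1.44 ± 0.26 under noise (adjusted p = 2.48e-06). On the gene's own spread a two-sided permutation test gave p = 1e-05 under mock, the smallest that 100000 resamples can give, and the exact test gave p = 3.97e-05 under noise. The difference between the treatments was 0.14 (95% interval -0.50 to 0.78).

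Neuron and supporting-cell regions cut from the same captured area could be set side by side in 14 mock and 7 noise areas. Ppp3cb was higher in the neuron region in 13 of 14 mock areas, with equal values in the other, and in 7 of 7 noise areas. The mean difference within an area was 1.31 ± 0.70 (SD, n = 14) under mock and 1.67 ± 0.52 (n = 7) under noise. Ppp2r2c was higher in the neuron region in 10 of 14 mock areas, lower in 1 and equal in 3, and higher in 7 of 7 noise areas.

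**Figure D1:**
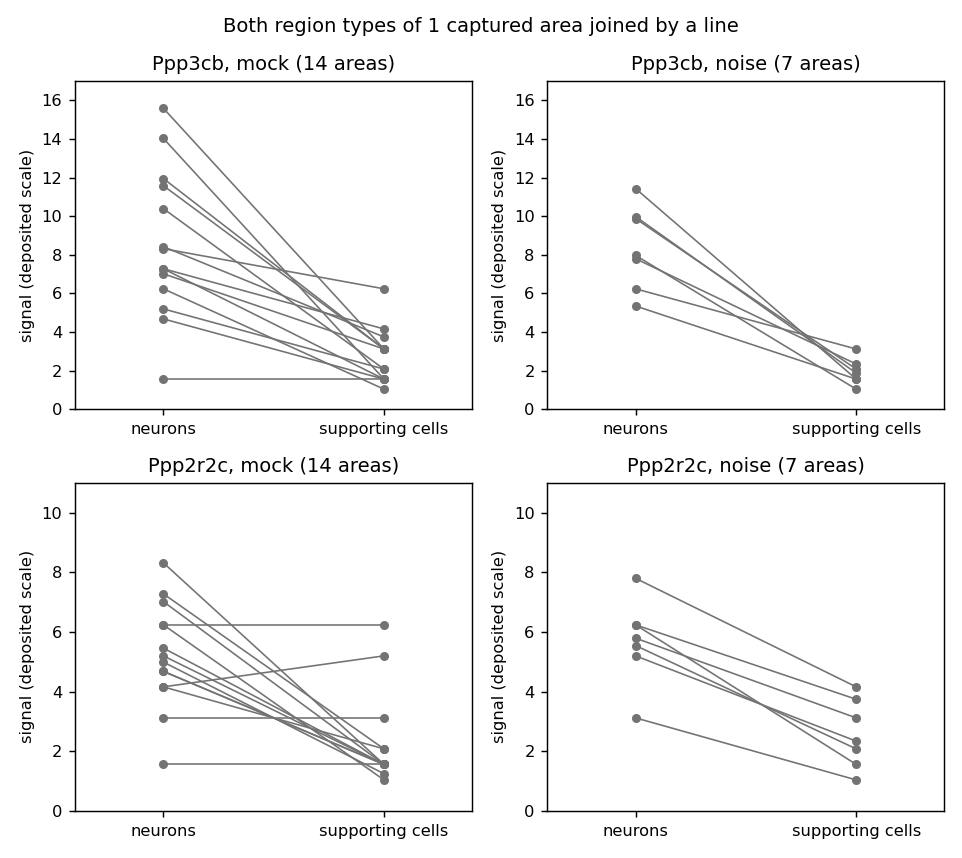
Signal on the deposited scale (vertical axis) of Ppp3cb (top) and Ppp2r2c (bottom) in the neuron and supporting-cell regions of each captured area, joined by a line, for 14 mock areas (left) and 7 noise areas (right). The lines fall from neurons to supporting cells in 13 of 14 and 7 of 7 areas for Ppp3cb and in 10 of 14 and 7 of 7 areas for Ppp2r2c.

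The other calcineurin genes did not share the pattern of Ppp3cb. Ppp3r1, the calcium-binding regulatory subunit, had signal of 1.56 to 10.4 (median 3.12) in mock neurons and 1.56 to 12.5 (median 4.42) in mock supporting cells, with a difference of -0.42 ± 0.20 that limma did not call (adjusted p = 0.139). The ranges overlapped almost wholly. The count tests on recovered reads did call Ppp3r1 lower in mock neurons, at -0.71 in edgeR (adjusted p = 0.0205) and -0.86 in DESeq2 (adjusted p = 0.0131). Ppp3cc, the gamma catalytic subunit, differed by 0.24 ± 0.20 under mock and by -0.29 ± 0.25 under noise, neither called. Ppp3r2, a second regulatory subunit best known from testis, differed by -0.18 and 0.06. Ppp3ca, the alpha catalytic subunit, was below the filter, with group means between 1.68 and 1.92.

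Ppp2r2c stood out among the PP2A genes. Its signal ran from 1.56 through 5.09 to 8.32 in mock neurons and from 1.04 through 1.56 to 6.24 in mock supporting cells. After noise it ran from 3.12 through 5.67 to 10.1 in neurons and from 1.04 through 2.34 to 4.16 in supporting cells. Most neuron regions lay above most supporting-cell regions, with some overlap under each treatment. The group means were 5.20 ± 1.64 (n = 16), 5.77 ± 2.09 (n = 12), 2.28 ± 1.55 (n = 14) and 2.55 ± 1.06 (n = 8), in the order used above. The median counts behind them were 7.5, 9.5, 1 and 2.5 reads, and 8 of 14 mock supporting-cell regions held 1 read. The difference was 0.97 ± 0.20 under mock (limma, adjusted p = 2.88e-05, permutation p = 5e-05) and 0.93 ± 0.25 under noise (adjusted p = 0.00585, exact permutation p = 0.000333). The difference between the treatments was -0.04 (95% interval -0.68 to 0.59).

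Ppp2r1a had signal of 1.56 to 7.80 (median 4.16) in mock neurons and 1.04 to 6.24 (median 1.56) in mock supporting cells, ranges that overlapped widely. It was 0.60 ± 0.20 higher in mock neurons (limma, adjusted p = 0.0171, permutation p = 0.00641) and differed by 0.09 ± 0.25 under noise. The noise values ran from 0.78 to 7.02 in neurons and from 1.04 to 5.46 in supporting cells. The difference between the treatments was -0.51 (95% interval -1.13 to 0.11, adjusted p = 0.874), which did not pass the test. The call was also lost in DESeq2 (adjusted p = 0.177) and with the olfactory receptor level as a covariate (0.258). Ppp2ca, the alpha catalytic subunit that the scaffold holds, differed by 0.05 under mock (95% interval -0.34 to 0.44) and by 0.02 under noise (-0.47 to 0.51). The other tested PP2A genes, the B55 beta subunit Ppp2r2b and the B56 subunits Ppp2r5a, Ppp2r5b and Ppp2r5e, had differences from -0.19 to 0.29 under mock and none was called.

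**Figure D2:**
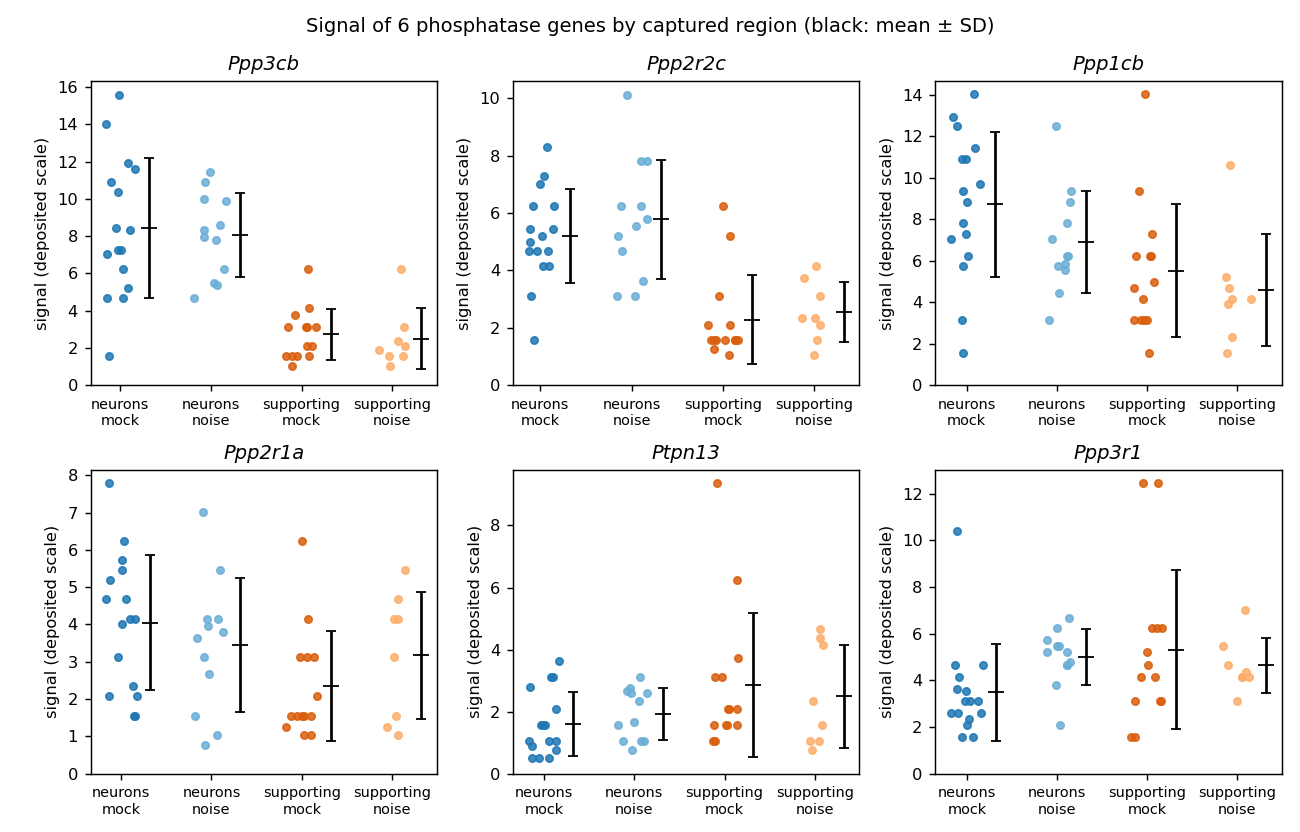
Signal on the deposited scale (vertical axes, each from 0) in every region for 6 members, by group (neurons mock n = 16, neurons noise n = 12, supporting cells mock n = 14, supporting cells noise n = 8). Points are regions and black bars are mean ± SD; Ppp3cb and Ppp2r2c sit higher in both neuron groups (means 8.45 and 8.05, and 5.20 and 5.77) than in both supporting-cell groups (2.72 and 2.48, and 2.28 and 2.55).

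Over all genes tested, 2102 of 4686 differences between region types were positive under mock and 2597 under noise. In the stretch from N to Slc26 these counts were 751 and 1160 of 2716. All 3 PP1 catalytic genes had positive differences under both treatments (2 of 3 under mock with the olfactory receptor covariate), and Ppp1cb under mock was the 1 called. Its signal ran from 1.56 through 9.10 to 14.0 in mock neurons and from 1.56 through 4.83 to 14.0 in mock supporting cells, so the ranges coincided while the centres differed. The difference was 0.60 ± 0.21 under mock (limma, adjusted p = 0.0246, permutation p = 0.0206) and 0.57 ± 0.26 under noise (adjusted p = 0.187). The mock call was lost in DESeq2 (adjusted p = 0.109) and with the olfactory receptor level as a covariate (0.314). Within areas Ppp1cb was higher in the neuron region in 11 of 14 mock and 6 of 7 noise areas. Ppp1ca, the alpha form, differed by 0.20 ± 0.20 under mock and 0.53 ± 0.25 under noise (adjusted p = 0.506 and 0.212), and Ppp1cc, the gamma form, by 0.14 and 0.16.

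None of the 24 tested PP1 regulatory genes was called under either treatment, with 10 positive under mock and 12 under noise. The positive counts under mock and noise were 2102 and 2597 of 4686 genes tested, and 751 and 1160 of 2716 in the stretch. Ppp1r9b, spinophilin, which holds PP1 at dendritic spines, had signal of 1.56 to 10.9 (median 5.69) in mock neurons and 1.56 to 7.80 (median 3.95) in mock supporting cells. Its difference of 0.46 ± 0.21 missed the threshold (limma, adjusted p = 0.0968), and it was higher in the neuron region in 10 of 14 mock and 5 of 7 noise areas. Ppp1r15b, the constitutive subunit that directs PP1 to the translation factor eIF2alpha, had a difference of -0.39 under mock and 0.32 under noise, with the supporting-cell region higher in 10 of 14 mock and 1 of 7 noise areas. The contrast between those treatments was 0.71 (95% interval 0.10 to 1.31) and did not pass over all genes (adjusted p = 0.726). Ppp1r15a, the stress-induced partner of the same kind, also known as GADD34, had differences of -0.24 and -0.35. It was not above the olfactory receptor background in any group. Ppp1r10, the nuclear subunit PNUTS, differed by -0.09 under mock and -0.57 ± 0.24 under noise (limma, adjusted p = 0.139), and edgeR called the latter (-0.97, adjusted p = 0.0269). Its signal after noise ran from 0.52 to 4.16 (median 2.34) in neurons and from 1.04 to 12.5 (median 3.12) in supporting cells. The noise supporting-cell mean was 4.48 ± 3.93 (n = 8), and only there did Ppp1r10 pass the olfactory receptor background. The inhibitors Ppp1r1a and Ppp1r2 differed by -0.31 and -0.16 under mock and by -0.03 and 0.43 under noise. Ppp1r1b, known as DARPP-32, was below the filter, and its means were 1.38 ± 0.967, 1.46 ± 0.558, 2.57 ± 1.45 and 1.59 ± 0.782 in the order used above.

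None of the 10 PP4, PP5 and PP6 genes was called between region types. The catalytic genes Ppp4c, Ppp5c and Ppp6c differed by 0.28, 0.22 and -0.26 under mock and by 0.11, -0.21 and 0.22 under noise. The PP6 regulatory genes Ppp6r1, Ppp6r2 and Ppp6r3 were above the olfactory receptor background in every group, with group means from 3.39 to 5.79 and differences from -0.32 to 0.31.

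Among the tyrosine phosphatases, 1 of 9 tested genes was called under mock and none under noise. Ptpn13 had signal of 0.52 to 3.64 (median 1.30) in mock neurons and 1.04 to 9.36 (median 2.08) in mock supporting cells, so the ranges overlapped and the highest values were in supporting cells. The difference was -0.49 ± 0.18 (limma, adjusted p = 0.0405, permutation p = 0.0345), and the supporting-cell region was higher in 10 of 14 mock areas. Ptpn13 was not above the olfactory receptor background in any group, and the olfactory receptor genes themselves were shifted the same way, with a median of -0.23 and 37 of 465 called lower in mock neurons. With their level as a covariate the adjusted p of Ptpn13 was 0.614. Ptpn5, the neuronal phosphatase STEP, differed by -0.34 under mock and 0.00 under noise, and Ptpn11, known as SHP2, by 0.02 and 0.30. Ptprs, a receptor phosphatase that binds proteoglycans and organises synapses, differed by 0.39 ± 0.20 under mock (95% interval -0.00 to 0.78, limma adjusted p = 0.161) and by 0.36 ± 0.25 under noise, and was higher in the neuron region in 11 of 14 mock areas. Its relative Ptprf, known as LAR, differed by -0.19 and 0.32, and Ptprn, a dense-core vesicle protein without enzyme activity, by 0.16 and 0.34. The differences of Ptpra were -0.09 and -0.19. Like Ptpn13, Ptpn5 and Ptprn were not above the olfactory receptor background in any group. Ptpro and Ptprz1 were below the filter, with group means of 1.33 to 2.32 and 1.31 to 2.45.

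**Figure D3:**
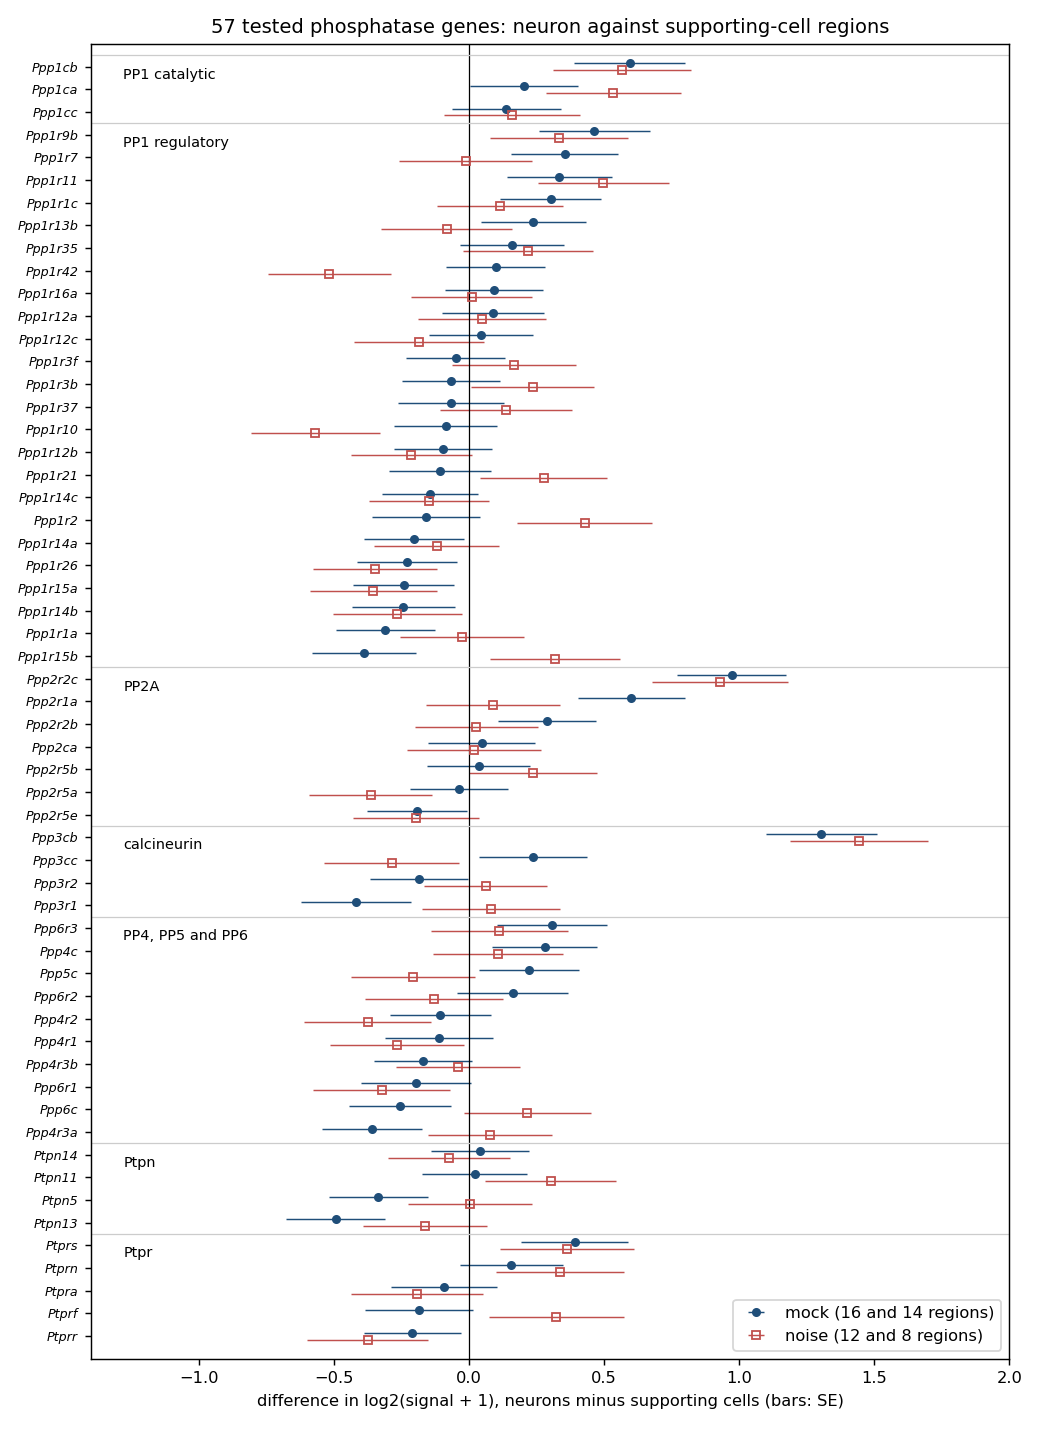
Difference in log2(signal + 1) between neuron and supporting-cell regions (horizontal axis) for the 57 tested members, grouped by family, with limma standard errors as bars; filled circles are mock (16 and 14 regions) and open squares noise (12 and 8 regions). Ppp3cb (1.30 and 1.44) and Ppp2r2c (0.97 and 0.93) lie farthest to the right under both treatments, while most members lie within 0.5 of 0.

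The mock and noise comparisons share no region, so the members' differences could be set against each other across genes, which are not independent replicates. The sign was the same for 37 of 57 members, with Pearson r = 0.61 and Spearman rho = 0.38. Over all 4686 genes the sign was the same for 3291, with r = 0.73 and rho = 0.61.

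The calls between region types depended on how low signal was treated. With the negative probe value of each region subtracted, 8 members were called under mock, all higher in neurons, against 4 higher and 1 lower without the subtraction, while 23.5% of all genes and 9.46% of the stretch were called. The genes added were Ppp1r1c, Ppp1r9b, Ppp2r2b and Ppp5c, while Ptpn13 was no longer called. Ppp1r1c, Ppp2r2b and Ppp5c were not above the olfactory receptor background in any group. In mock supporting-cell regions 11, 9 and 12 of their 14 values stood at 1 read. That subtraction moved the median of all genes from -0.05 to 0.22, the olfactory receptor covariate moved it to 0.12 and DESeq2 to -0.22, so the calls under these settings are relative to those shifts. With no filter on low values 8 of 69 were called, 4 higher and 4 lower, the latter being Ptpn13 with Ppp1r1b, Ppp2r2a and Ptpro. All genes were then called at 15.7% (981 of 6248) and the stretch at 9.91% (329 of 3319), beside 11.6% of the members. A filter that asked for more than 1 read in at least 50% of regions kept 65 members and 5583 genes, more than the filter used, and called 8 members, 17.1% of all genes and 10.5% of the stretch. With the mean of the olfactory receptor genes in the model Ppp3cb and Ppp2r2c alone remained, with 8.69% of all genes and 3.31% of the stretch called. The count tests called 5 members in edgeR (14.6% of all genes, 7.17% of the stretch) and 3 in DESeq2 (11.1% and 6.61%), and the replicate block left 3 (18.2% and 10.2%). The summed neuron markers and the olfactory receptor level differed between the region types as given above, and their part in these differences was not tested.

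Noise and mock were compared within each region type, to show whether phosphatase transcripts differed after exposure. No member was called by limma in neuron regions or in supporting-cell regions. In neuron regions 0 of 57 were called, against 0.662% of all genes (31 of 4686; 0.213% higher and 0.448% lower), and 2 members had an unadjusted p below 0.05, against 13.5% of all genes. In supporting-cell regions 0 of 57 were called, against 0.363% of all genes (17 of 4686; 0.064% higher and 0.299% lower), and 7 had an unadjusted p below 0.05, against 10.1%. edgeR and DESeq2 on recovered reads called 0 members in either comparison. In neuron regions edgeR called 3.94% of all genes (183 of 4646) and 1.63% of the stretch, and DESeq2 2.86% and 1.11%; in supporting-cell regions these shares were 0.172% and 0.111% in edgeR and 0.237% and 0.111% in DESeq2. The members' median differences were 0.03 in neurons and 0.01 in supporting cells, beside 0.02 and -0.03 over all genes and 0.13 and 0.05 over the genes from N to Slc26. No member had noise and mock values that did not overlap, which 0% of genes had in neuron and 0.0213% in supporting-cell regions. The median standard error of a member's noise difference was 0.20 in neurons and 0.23 in supporting cells, and most intervals therefore include changes of either sign. Captured areas are named by treatment and none holds both, so treatment and area cannot be told apart.

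None of the genes that differed between region types was called for noise. Ppp3cb differed by 0.02 in neurons (95% interval -0.40 to 0.44) and by -0.12 in supporting cells (-0.61 to 0.37). For Ppp2r2c these values were 0.12 (-0.29 to 0.53) and 0.16 (-0.32 to 0.64). For Ppp1cb they were -0.24 (-0.66 to 0.18) and -0.21 (-0.70 to 0.27), and all 3 PP1 catalytic genes were negative in both region types, from -0.24 to -0.03 in neurons and from -0.36 to -0.21 in supporting cells. In neurons 1 of the 3 turned positive with the negative probe subtracted, with the olfactory receptor covariate and with the replicate block. For Ppp2r1a they were -0.21 and 0.30, and for Ptpn13 0.21 and -0.12. The summed neuron markers were also lower in noise neuron regions, where all 10 markers had negative differences (median -0.42; 9 with the negative probe subtracted and 8 with the olfactory receptor covariate) and 1 was called, and the summed glial markers in noise supporting-cell regions, where all 9 were negative (median -0.57; 7 with the negative probe subtracted or the regions centred, 8 with the replicate block) and 3 were called. Their part in the members' values was not tested.

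The members with the smallest unadjusted p in each region type, chosen for that reason, were set against their own spread. In neuron regions Ppp3r1 had signal of 2.08 to 6.68 (median 5.20) after noise and 1.56 to 10.4 (median 3.12) under mock. The noise regions clustered above the mock median, but the highest value was a mock region and the ranges overlapped. The difference was 0.49 ± 0.21 (limma, adjusted p = 0.283), with 11 of 12 noise regions above the mock mean and an unadjusted permutation p of 0.00976. Ppp1r35, a centriole protein, followed with 0.42 (permutation p = 0.0462), then Ppp1r2, inhibitor 2 of PP1, with 0.38 (0.0659) and Ptpn5 with 0.35 (0.0645). Olfactory receptor genes moved the same way in neuron regions, with a median noise difference of 0.19.

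In supporting-cell regions Ppp1r42, a leucine-rich repeat protein, had signal of 1.04 to 5.46 (median 3.12) after noise and 0.624 to 4.68 (median 1.56) under mock. The ranges overlapped, with 7 of 8 noise regions above the mock mean. The difference was 0.64 ± 0.22 (limma, adjusted p = 0.185, exact permutation p = 0.0066). Ppp5c, which binds Hsp90 through its TPR domain, had signal of 1.04 to 4.68 (median 2.21) after noise and 1.04 to 3.12 (median 1.56) under mock, a difference of 0.50 ± 0.22 (limma, adjusted p = 0.405, exact permutation p = 0.00822). Ptprf had signal of 1.04 to 4.16 (median 2.73) after noise and 1.56 to 8.32 (median 3.95) under mock, a difference of -0.56 ± 0.24 (limma, adjusted p = 0.377, exact permutation p = 0.0257). Ppp4r2, a regulatory subunit of PP4, differed by 0.46 (exact permutation p = 0.0425). In mock supporting-cell regions 11 of 14 values of Ppp1r42 and 12 of 14 values of Ppp5c stood at 1 read. Ppp1r42, Ppp5c and Ppp4r2 were not above the olfactory receptor background in any group, and Ptprf was above it in mock supporting-cell regions but not after noise. The permutation values are unadjusted and none of these 4 members passed over all genes.

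By family, the counts of positive noise differences were as follows, none with a call. Of the 10 PP4, PP5 and PP6 genes 7 were positive in supporting-cell regions (median 0.23) and 4 had an unadjusted p below 0.05: Ppp5c, Ppp4r2 and Ppp6r3 (0.49) positive and Ppp6c (-0.45) negative. In neuron regions 7 of 10 were also positive (median 0.05) with none at that level. PP1 regulatory genes were positive for 16 of 24 in neurons (median 0.11) and 14 of 24 in supporting cells (median 0.09). PP2A genes were positive for 2 of 7 and 4 of 7. Calcineurin genes were positive for 3 of 4 and 1 of 4, Ptpn genes for 3 of 4 and 2 of 4, and Ptpr genes for 2 of 5 and 3 of 5. These counts stand beside 2515 of 4686 genes positive in neurons and 2144 of 4686 in supporting cells, and beside 1922 of 2716 and 1535 of 2716 in the stretch from N to Slc26. Over all members 33 of 57 and 31 of 57 were positive.

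**Figure D4:**
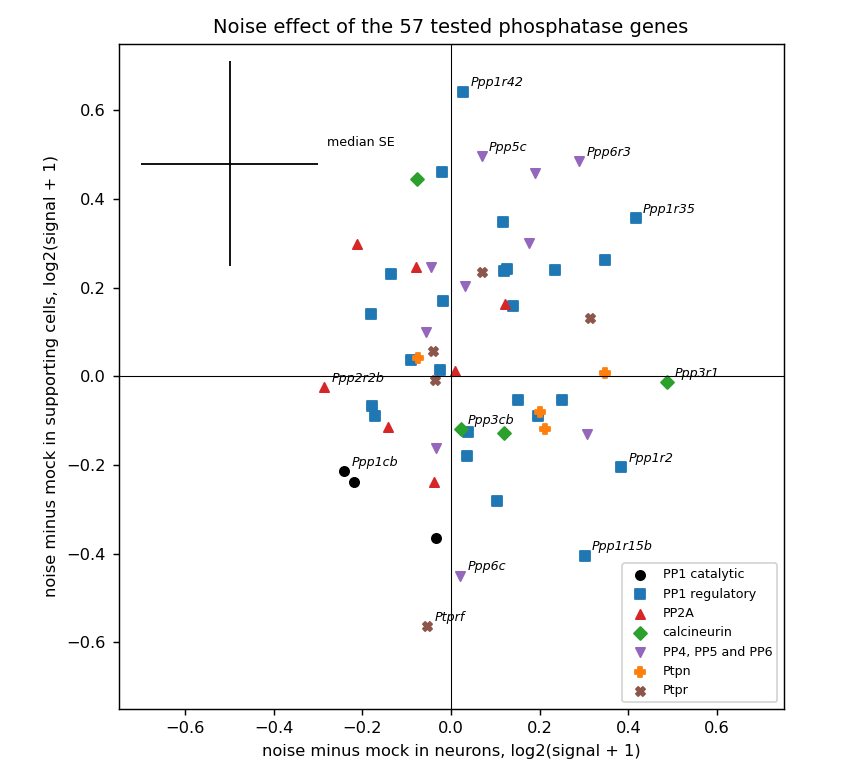
Noise minus mock difference in log2(signal + 1) in neuron regions (horizontal axis) against supporting-cell regions (vertical axis) for the 57 tested members, with symbols by family; the cross at the upper left gives the median standard error on each axis (0.20 and 0.23). The points scatter around 0 without a common direction, and the outermost, Ppp1r42 (0.64) and Ptprf (-0.56) in supporting cells and Ppp3r1 (0.49) in neurons, were not called.

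The neuron and supporting-cell noise comparisons share no region. Across the 57 members the sign of the noise difference was the same for 29, with Pearson r = 0.10 and Spearman rho = 0.10 across genes. Over all genes the sign was the same for 2779 of 4686, with r = 0.33 and rho = 0.31. The difference of the noise effects, neurons minus supporting cells, was called for 0 of 57 members and 0% of all genes by limma, with 0 members called in edgeR or DESeq2. An unadjusted p below 0.05 was reached by 2 members, Ppp1r15b (0.71) and Ppp1r42 (-0.61), and by 5.61% of all genes. The members' median was -0.03, beside 0.05 over all genes and 0.08 over the stretch from N to Slc26.

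Other phosphatases and partners of these enzymes, 52 listed of 107 in a list made for this purpose, were read the same way, and 41 were tested. Under mock 1 was higher in neurons, Ppm1e, a metal-dependent phosphatase of neurons (0.73, limma adjusted p = 0.0019), and 1 lower, the dual-specificity phosphatase Dusp15 (-0.67, adjusted p = 0.00339). These 2 were 4.88% of the 41, beside 19.1% of all genes and 10.8% of the stretch. The group means of Dusp15 were 1.52, 1.76, 3.21 and 2.81 in the order used above. Each was below the olfactory receptor background of its group (2.55, 3.30, 3.29 and 3.98). Ppm1e passed that background in mock neuron regions alone, with a mean of 3.43. None of the 41 was called between region types after noise, in either noise comparison or in the difference of the noise effects. The list's medians were -0.07 and 0.06 between region types under mock and noise, and 0.07 and -0.00 for noise in neurons and supporting cells. The calcineurin regulators Rcan1, Rcan2 and Rcan3 differed by -0.07, 0.50 and -0.43 between region types under mock and were not called. Rcan2 had a mean of 3.83 ± 1.39 in mock neurons (n = 16) and 2.73 ± 2.58 in mock supporting cells (n = 14), with an adjusted p of 0.057 in limma.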

How the data were processed

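GeoMx region files held the authors' deposited signal per gene, scaled by them so that every region had the same upper quartile, per the values and file headers; DRAGEN and the builds mm10 and GRCm38 are named in the submitters' processing notes without a role, and the counting, the gene filter and the treatment of background are not given in the sources used here. Each value was a whole multiple of the region's lowest (99.99% within 0.01 of whole reads), so reads were recovered. The members and lists were chosen with earlier results of these data known. Only genes in the deposited files were analysed; 2716 of the 4686 genes tested sort from N to Slc26, as all members do.

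Signal was tested as log2(signal + 1) with limma 3.58.1 (lmFit, eBayes with trend) in R 4.3.3, with 4 group means over 50 regions, genes at or above the 0.25 quantile of mean signal (4686), and Benjamini-Hochberg adjustment over all of them; an adjusted p below 0.05 was called. A fold change on this scale understates low genes. limma took each standard error from genes of similar mean, so permutation tests on a gene's own spread are given too. Named members were those called, the 3 highest and 3 lowest differences per comparison, the 3 highest mean signals per family, and a fixed list. edgeR 4.0.16 (679, 327, 183 and 8 genes called for region type under mock and noise and for noise in neurons and supporting cells) and DESeq2 1.42.0 on recovered reads, pseudocounts, filters, centring, background terms and blocks were alternatives. No same-numbered pair of regions had a correlation over 0.1. Among neuron and supporting-cell regions of the same captured area, 0 of 14 mock and 1 of 7 noise pairs did. This cutoff therefore cannot exclude pairing by replicate number. The neuron region's best match was its area partner in 6 of 14 mock and 1 of 7 noise pairs. By replicate number it was so in 1 of 14 and 0 of 7.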

Additional observations from a re-analysis of the deposited data

Results flagged for a closer look

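The 36 named members were examined in the 8 noise supporting-cell regions. Of these members, 4 had a highest region set apart from the others by more than Dixon's critical value of 0.526. For normally distributed values chance alone does so in about 1 in 20 groups. That rate need not hold here, where the signal of a region is a small number of reads. Ppp1cb stood at 10.6 (17 reads) in replicate 6, with the others between 1.56 and 5.20. Ppp3cb stood at 6.24 (8 reads) in replicate 4, with the others between 1.04 and 3.12. Ppp2r2b stood at 4.68 (3 reads) in replicate 2, with the others between 0.624 and 2.34. Ptprz1 stood at 6.24 (4 reads) in the same replicate 2, with the others between 0.624 and 3.12. In replicate 2 the signal of 1 read was 1.56, beside a median of 0.91 in this group.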

How the results depend on the processing

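The calls of Ppp3cb and Ppp2r2c in both region-type comparisons held under all 13 alternatives, with adjusted p up to 0.0232 and 0.0406 for Ppp2r2c and 0.00136 and 0.000743 for Ppp3cb. No named member changed direction in any comparison for which it was named. The 5 calls under mock became 8 with no filter, 8 with a filter on regions above 1 read (looser here than the one used, since it kept 65 members against 57), 8 with the negative probe subtracted (which also moved the members' median to 0.254), 3 in DESeq2, 2 with the olfactory receptor covariate and 3 with the replicate block; edgeR gave 5. Ptpn13 lost its call in 6 of 13 alternatives (adjusted p 0.0627 to 0.614), Ppp1cb in 3 and Ppp2r1a in 2. With the replicate number as a block, which was not shown to pair the regions, Ppp1cb (limma adjusted p 0.0544) and Ptpn13 (0.111) were not called. The captured area as a random block changed no call of a member. The noise comparisons and the difference of the noise effects called 0 members under every alternative. The permutation tests of single members were chosen after seeing the data; between region types they were run on called members only, are unadjusted, and are no check of the calls. Depth limits these results: the median member was counted at 1.5 to 3.5 reads per region.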
